A study of Mus musculus with 9 samples.

Results

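The complement genes described here are 31 components, regulators and receptors of the mouse complement system, listed by name and looked up by gene symbol in the deposited mRNA values of a renal cortex RNA-seq series. Of the 31, 30 had values, out of 21950 mRNA genes in all. C4a was not analysed here, and Vsig4, a macrophage receptor for C3 fragments, was listed at 0 in all 9 libraries. The other 29 had a mean of at least 0.1 FPKM over the 9 libraries and were tested together with all 14537 genes above that level. FPKM is the number of sequenced fragments per kilobase of transcript, relative to all mapped fragments of the library, here summed over the transcripts of a gene.

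The cortices came from 9 male mice on the C57BL/KsJ background at 15 weeks of age, 1 library per mouse and 3 mice per group. Mice of the dbdb group were type 2 diabetic, carried the db mutation of the leptin receptor gene (Lepr) on both chromosomes and received vehicle. Mice of the dbR group had the same genotype and received the PPARγ agonist rosiglitazone by gavage, at a daily dose of 20 mg/kg that began at 7 weeks of age and lasted 8 weeks. The control group was made up of heterozygous, non-diabetic db/m littermates that received no rosiglitazone. Because db/db mice lack leptin signalling in every tissue, obesity and diabetes cannot be told apart in a comparison with control.

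Complement is a cascade in which recognition molecules bind a surface or an immune complex, proteases cleave C3 and C5, and the fragments coat the target, call in leukocytes through receptors and seed a pore in the membrane. Soluble and membrane-bound regulators stop the cascade on the body's own cells. Most plasma complement is made in the liver, but tubule cells, macrophages and fibroblasts of the kidney transcribe part of it, and complement deposits in glomeruli and tubules accompany many kidney diseases.

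The files hold no read counts, so depth was estimated from the smallest steps between low FPKM values in genes with a single transcript. By that estimate the libraries held between 23.1 and 28.8 M fragments (M, mega), with relative depths of 1, 0.949 and 1.02 in control, 0.936, 0.963 and 0.983 in dbdb and 1.14, 1.05 and 0.911 in dbR. Mitochondrial genes took between 26.9% and 32.8% of the summed FPKM. The labelled tissue was checked against 9 proximal tubule markers, whose summed FPKM over the 3 mice averaged 4659 in control, 4482 in dbdb and 4919.6 in dbR, with none at 0. Miox was the most abundant over all 9 libraries, and Slc34a1 within dbdb. All 5 markers of the thick limb, distal tubule and collecting duct were also present, led by Umod, and so were all 5 podocyte markers, led by Podxl. These lists were not level between groups: of the thick limb, distal and collecting duct markers 3 were called higher in dbdb vs. control (median log2 fold change 0.98) and 4 in dbR vs. control, and of the podocyte markers 2 in each. The part of this shift in the complement results was not tested. Among the 29 tested complement genes 20 had a mean of at least 1 FPKM, and the means ran from 0.195 for C6 to 194 for Cfb.

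Values per library are given below in the order of replicates 1, 2 and 3, and spreads are SDs with n = 3. Group comparisons were made with limma on log2(FPKM + 0.1), where 0.1 is a pseudocount that keeps values of 0 on the scale and pulls the fold changes of low genes towards 0. The tests are two-sided, and p-values were adjusted by the Benjamini-Hochberg method over all tested genes of a comparison. A gene is called higher or lower when its adjusted p is under 0.05, and an adjusted p above that does not show that the values were equal. The comparison dbdb vs. control asks how untreated diabetic cortex differs from that of non-diabetic littermates, dbR vs. dbdb asks what goes with rosiglitazone within db/db mice, and dbR vs. control asks how treated mice stand against non-diabetic ones. Each group enters a pair of these comparisons, so they share libraries and are not independent of each other.

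The dbdb libraries differed among themselves for these genes, with replicate 3 high and replicate 1 low. Replicate 3 had the highest FPKM of its group for 18 of the 29 complement genes (62.1%), while it was highest for 33.8% of all tested genes. Its median log2 difference from the mean of the other dbdb libraries was 0.33 over the complement genes and -0.0071 over all tested genes. For dbdb replicate 1 the same median was -0.30 over the complement genes and -0.0044 over all tested genes. Control replicate 1 was likewise the highest of its group for 18 of 29, with a smaller median difference of 0.16. The median SD of the complement genes was 32.4% of the group mean in dbdb, 17.5% in control and 14% in dbR. Results for the complement genes are therefore given with and without dbdb replicate 3 where that changes a call. Counts for the marker lists are from all libraries unless stated.

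In dbdb vs. control, 3 of the 29 complement genes were called higher, where 13.1% of all tested genes were, and 11 were called lower, where 13.4% of all were. The 11 include Masp2 and Cfd, whose dbdb means were under 0.1 FPKM. Among genes with a mean of at least 0.1 FPKM in both groups, 9 of 27 complement genes were called lower, where 13.3% of all such genes were. The groups did not overlap for 16 of the 29, with dbdb above control for 4 and below it for 12; of all tested genes 42.4% showed such separation. The median log2 fold change was -0.44 over the complement genes and -0.0030 over all tested genes. Without dbdb replicate 3 the counts were 3 higher, against 10.4% of all genes, and 13 lower, against 11% of all genes. The lower genes then included C1qa, C1qb, C1qc and Cfb and no longer Cr1l and Itgam. The count of lower genes fell to 7 without control replicate 1, where 10.2% of all genes were called lower, and that of higher genes rose to 5 without dbdb replicate 1, where 10.7% of all were called higher. The genes concerned are named under their roles.

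In dbR vs. dbdb, limma called 1 complement gene higher (Mbl1), against 0.564% of all tested genes, and 0 lower, against 0.179% of all. At an unadjusted p under 0.05 there were 11 higher and 3 lower, and of all tested genes 9.43% and 8.05%. The groups did not overlap for 11 genes, with dbR above dbdb for 10 and below it for 1, against 22.7% of all genes. The median log2 fold change was 0.34, with 21 of 29 above 0, and over all tested genes it was -0.0022. Without dbdb replicate 3, 2 genes were called higher (Mbl1 and Itgb2), where 0.791% of all genes were, and 0 lower, where 0.179% were, with 14 and 2 at an unadjusted p under 0.05, against 9.03% and 7% of all genes. Without dbdb replicate 1, 1 gene was called lower (C4b), where 0.0894% of all genes were. Without dbR replicate 2, and likewise without dbR replicate 3, limma called 0 complement genes higher, but it then called only 2 and 5 of all 14537 genes higher, so these counts are not particular to complement genes.

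In dbR vs. control, 4 complement genes were called higher, where 12.3% of all tested genes were, and 5 lower, where 11.8% of all were. Without Masp2 and Cfd, whose dbR means were under 0.1 FPKM, 3 of 27 were called lower. The groups did not overlap for 14 of the 29, split evenly with 7 on each side, and 41.9% of all tested genes were separated in this way. The median log2 fold change was -0.16, and -0.0014 over all tested genes. The counts were the same, 4 and 5, in the fit without dbdb replicate 3.

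**Figure D1:**
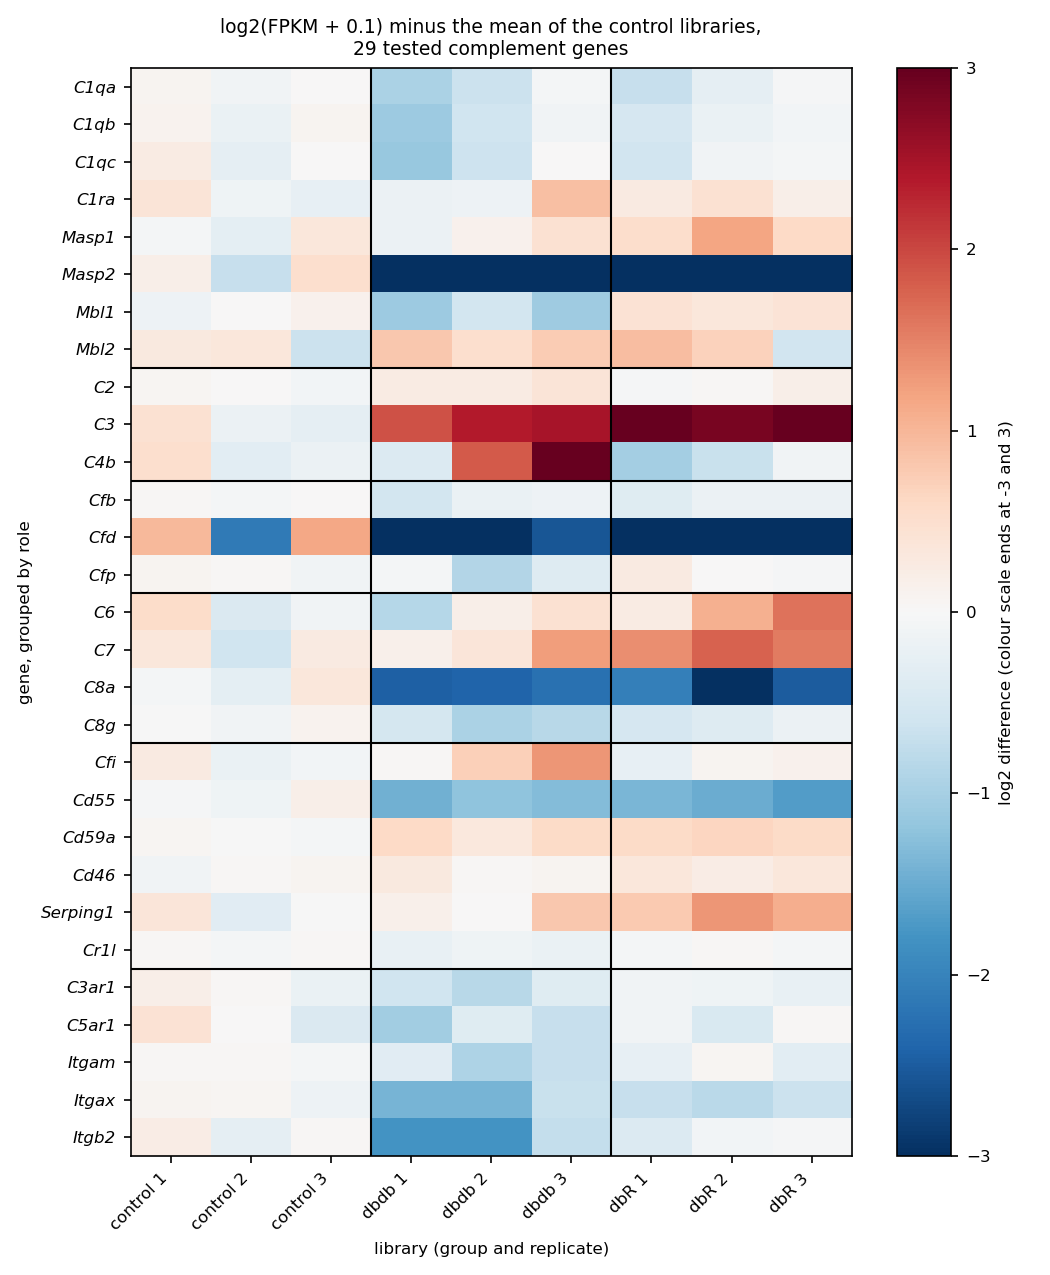
Heat map of log2(FPKM + 0.1) minus the mean of the control libraries for the 29 tested complement genes (vertical axis, grouped by role) in each of the 9 libraries (horizontal axis). C3 is high and Masp2, C8a, Cd55 and Cfd are low in all 6 db/db libraries, while Itgb2 is lowest in dbdb replicates 1 and 2.

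C1q is the recognition molecule of the classical pathway, built from the products of C1qa, C1qb and C1qc, and in most tissues macrophages are its main source. For C1qa (ENSMUSG00000036887, chr4:136895917-136898803) the libraries had 16.2, 14.2 and 15.3 FPKM in control, 7.85, 9.72 and 14.6 in dbdb and 9.42, 12.6 and 14.7 in dbR. The control values lie close together, dbdb replicates 1 and 2 lie below all of them, and dbdb replicate 3 reaches the control range, so the groups overlap. C1qb was between 6.83 and 15.8 FPKM and C1qc between 4.62 and 12.2 FPKM over the 9 libraries, with the same order of the dbdb replicates. The summed FPKM of the 3 C1q genes was 44.2, 35.5 and 41.4 in control, 19.3, 25.9 and 38.6 in dbdb and 26.7, 34.9 and 38.5 in dbR. With all libraries the log2 fold changes in dbdb vs. control were -0.55 (SE 0.21, adjusted p 0.0829) for C1qa, -0.60 (SE 0.22, adjusted p 0.0653) for C1qb and -0.59 (SE 0.26, adjusted p 0.123) for C1qc, and none was called, although each had an unadjusted p under 0.05. Without dbdb replicate 3 they were -0.79 (adjusted p 0.0108), -0.85 (adjusted p 0.00777) and -0.88 (adjusted p 0.0159), and all 3 were called lower. Without dbdb replicate 1 they shrank to -0.35 (adjusted p 0.24), -0.35 (adjusted p 0.175) and -0.31 (adjusted p 0.351), so the result turns on which dbdb library is left out. In bulk RNA, fewer cells of a type and less RNA per cell cannot be told apart.

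Macrophage and myeloid markers, as a sum, were also low in dbdb. In dbdb replicate 3 that sum stayed below the control range, which the C1q sum reached. Of the 15 markers with values, 13 were tested and none of the 15 is among the complement genes. Their summed FPKM was 67.4, 55.2 and 57 in control, 21.9, 28.7 and 34.8 in dbdb and 36.5, 39.4 and 41.3 in dbR. Every dbdb library lies below every dbR library, and every dbR library below every control library. The most abundant marker over all 9 libraries was Tyrobp, with Lyz2 slightly above it in control, Clec4f was at 0 in all libraries and Cd163 was below 0.1 FPKM in all of them. Against control, in dbdb 0 of the 13 were called higher by limma (0 at an unadjusted p under 0.05) and 11 lower, or 12 without dbdb replicate 3, with a median log2 fold change of -1.05. Between dbR and dbdb limma called 0, with 7 at an unadjusted p under 0.05 and a median of 0.46. In dbR vs. control it called 4 lower, or 6 without dbdb replicate 3. The pan-leukocyte markers Ptprc, Cd53 and Coro1a, the last the most abundant, summed to 12.7, 11.7 and 10.8 in control, 4.37, 4.36 and 8.43 in dbdb and 6.03, 7.71 and 8.09 in dbR, and 2 of the 3 were called lower in dbdb vs. control, or all 3 without dbdb replicate 3. The part of these cell markers in the C1q values was not tested.

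**Figure D2:**
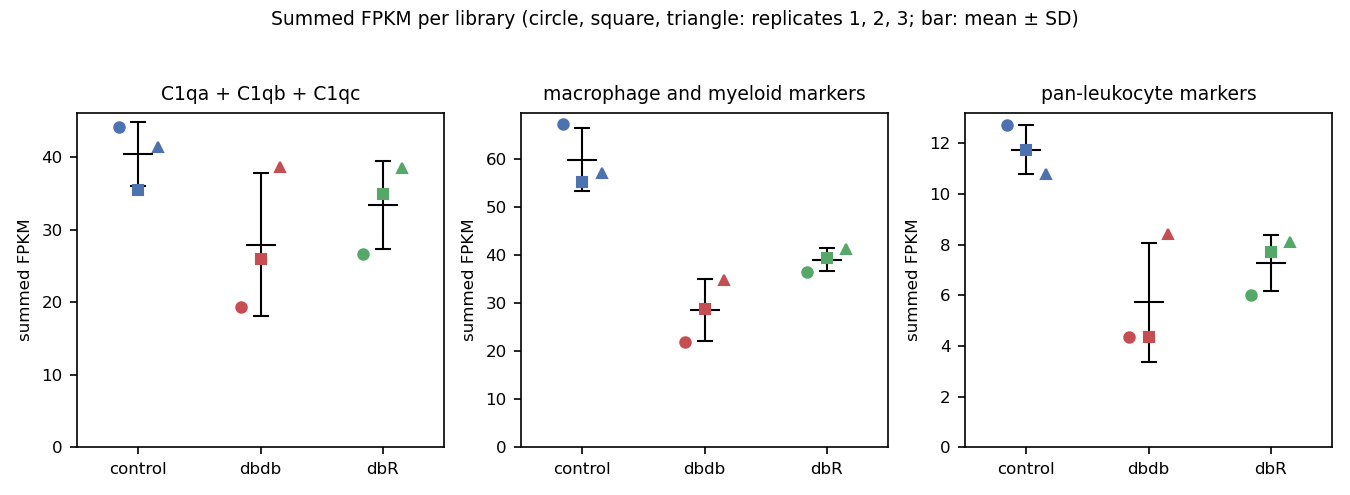
Summed FPKM per library (vertical axis) of the C1q genes, the macrophage and myeloid markers and the pan-leukocyte markers in the control, dbdb and dbR groups (horizontal axis). Symbols are replicates 1, 2 and 3 and bars are mean ± SD; in each panel dbdb replicate 3 is the highest of the dbdb libraries.

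C1ra encodes a protease that C1q activates. It was highest in dbdb replicate 3, at 7.76 FPKM, and between 3.41 and 5.63 FPKM in the other 8 libraries, and it was called in no comparison. Masp1 encodes a protease of the lectin pathway, which starts from sugars on a surface. Its FPKM was between 0.101 and 0.459, its log2 fold change in dbR vs. control was 0.76 (SE 0.29, adjusted p 0.0806), and every dbR library was above every control library.

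Masp2 encodes the lectin pathway protease that cleaves C4 and C2. Its libraries had 3.29, 1.75 and 4.16 FPKM in control, 0.15, 0.0731 and 0.0696 in dbdb and 0.0108, 0 and 0.239 in dbR (ENSMUSG00000028979, chr4:148602554-148615499). All 3 control libraries lie far above all 6 db/db libraries, of which dbR replicate 2 is listed at 0. The estimated number of fragments behind these values was 62, 31 and 80 in control, 3, 1 and 1 in dbdb and 0, 0 and 4 in dbR, so the db/db values rest on very few fragments. Its log2 fold change was -3.94 (SE 0.47, adjusted p 0.000317) in dbdb vs. control and -4.27 (SE 0.47, adjusted p 0.000242) in dbR vs. control, and the gene was called lower in both comparisons whichever of the 9 libraries was left out. Masp2 passed the filter on mean level through its control libraries alone, since the group means were 3.07 FPKM in control, 0.0977 in dbdb and 0.0831 in dbR. The size depends on the pseudocount: in dbdb vs. control it was -1.84 with a pseudocount of 1 and -4.83 with 0.01. In dbR vs. control it was -1.87 and -6.28. Of the FPKM of Masp2, 94.1% was assigned to a short transcript of 738 bases. The transcript of 3058 bases was at most 0.236 FPKM in any library. The group differences given above are thus mainly those of the short transcript, and they do not show a change in the long one. Whether the short transcript encodes the protease was not examined.

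Mbl1 and Mbl2 encode mannose-binding lectins, the soluble receptors that bring the lectin pathway proteases to sugars. For Mbl1 (ENSMUSG00000037780, chr14:41151458-41159601) the libraries had 1.64, 1.86 and 2.03 FPKM in control, 0.817, 1.22 and 0.829 in dbdb and 2.5, 2.33 and 2.46 in dbR. The groups are fully separate, with dbdb lowest, control between and dbR highest, and the group means were 1.84 ± 0.194 in control, 0.955 ± 0.229 in dbdb and 2.43 ± 0.0883 in dbR FPKM (SD, n = 3). With limma the gene had a log2 fold change of -0.90 (SE 0.16, adjusted p 0.00274) in dbdb vs. control, 1.28 (SE 0.16, adjusted p 0.0169) in dbR vs. dbdb and 0.39 (SE 0.16, adjusted p 0.102) in dbR vs. control. Mbl1 was the only complement gene called in dbR vs. dbdb with all libraries. This call was lost without dbR replicate 2 (adjusted p 0.0836), without dbR replicate 3 (adjusted p 0.0604) and with transcripts fitted singly (adjusted p 0.0928). As Mbl1 is listed with 1 transcript, its own values are the same in the transcript fit. Mbl1 was called higher in dbR vs. control without dbdb replicate 2 (adjusted p 0.0458) and in a fit to the 6 libraries of that comparison alone (adjusted p 0.0465). The estimated fragments were 37, 40 and 47 in control, 17, 26 and 18 in dbdb and 64, 55 and 50 in dbR. Mbl2 was low, between 0.0785 and 0.425 FPKM, and called in no comparison, although every dbdb library was above every control library. Its estimated fragments were 7, 7 and 2 in control, 10, 8 and 10 in dbdb and 13, 10 and 2 in dbR, so this separation rests on few fragments.

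The central components C2, C3 and C4b join the pathways, since C4 and C2 form the enzyme that cleaves C3 in the classical and lectin pathways. For C3 (ENSMUSG00000024164, chr17:57203970-57228136) the libraries had 7.47, 4.74 and 4.46 FPKM in control, 20.5, 28.6 and 30.4 in dbdb and 47.9, 39.7 and 48.7 in dbR. No groups overlap: every dbdb library lies above every control library, and every dbR library above every dbdb library. The group means were 5.56 ± 1.66 in control, 26.5 ± 5.3 in dbdb and 45.4 ± 4.99 in dbR FPKM (SD, n = 3). The log2 fold change was 2.25 (SE 0.20, adjusted p 6.63e-05) in dbdb vs. control and 3.04 (SE 0.20, adjusted p 1.62e-05) in dbR vs. control, and C3 was called higher in both whichever of the 9 libraries was left out. In dbR vs. dbdb it was 0.79 (SE 0.20, adjusted p 0.0891) and was not called, with adjusted p between 0.0576 and 0.22 when single libraries were left out. The longest transcript, of 5136 bases, held 84.2% of the FPKM of C3.

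C4b (ENSMUSG00000073418, chr17:34728380-34743882) encodes C4, and its libraries had 8.65, 4.82 and 5.3 FPKM in control, 4.54, 21.7 and 49.4 in dbdb and 2.91, 3.74 and 5.59 in dbR. Within dbdb, replicate 1 is just below the control values, while replicates 2 and 3 are above all other libraries. The SD in dbdb was 22.6 on a mean of 25.2 FPKM. In dbR vs. dbdb the log2 fold change was -2.08 (SE 0.68, adjusted p 0.163) and was not called, and without dbdb replicate 1 it was called, at -3.03 (adjusted p 0.0281). Without dbdb replicate 3 it shrank to -1.32 (adjusted p 0.286). C4b was not called in dbdb vs. control with all libraries (adjusted p 0.139), and without dbdb replicate 1 it was called higher, at 2.42 (adjusted p 0.00264), while without dbdb replicate 3 its adjusted p was 0.397. The fits without dbdb replicate 1 were looked at for C4b after its values had been seen. A share of 8.26% of the read-length windows of its transcript also occurs in C4a, so reads from that part of the transcript can be exchanged between the pair.

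C2 encodes the serine protease of the classical C3-cleaving enzyme. It had 23.7, 23.1 and 21.5 FPKM in control, 27, 26.9 and 29.9 in dbdb and 22.3, 23.2 and 25.6 in dbR, with every dbdb library above every control and every dbR library. Its log2 fold change was 0.29 (SE 0.072, adjusted p 0.0146) in dbdb vs. control, where it was called higher, and -0.24 (SE 0.072, adjusted p 0.141) in dbR vs. dbdb, where it was not called. The call in dbdb vs. control was lost without control replicate 3 (adjusted p 0.0528) and for its most abundant transcript fitted singly (0.0739).

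The alternative pathway amplifies C3 cleavage through Cfb (factor B, the protease subunit), Cfd (factor D, which activates factor B) and Cfp (properdin, which stabilises the enzyme). Cfb was the most abundant complement gene of the list, with 223, 210.3 and 222 FPKM in control, 149, 191 and 197 in dbdb and 169, 193 and 195 in dbR (ENSMUSG00000090231, chr17:34856374-34862518). All 6 db/db libraries lie below the 3 control libraries, and dbdb and dbR overlap. As a log2 fold change, the result was -0.30 (SE 0.10, adjusted p 0.059) in dbdb vs. control and -0.24 (SE 0.10, adjusted p 0.128) in dbR vs. control, and neither was called. Cfb was called lower in dbdb vs. control without dbdb replicate 3, at -0.37 (adjusted p 0.0367), and was -0.17 (adjusted p 0.146) without dbdb replicate 1. It was called lower in dbR vs. control without dbdb replicate 1, at -0.24 (adjusted p 0.037).

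Cfd (ENSMUSG00000061780, chr10:79890853-79892655) is known as an abundant adipocyte product. Its libraries had 1.64, 0.106 and 1.88 FPKM in control, 0, 0 and 0.0518 in dbdb and 0, 0 and 0 in dbR. Control replicates 1 and 3 are high and control replicate 2 is low. Both dbdb replicates 1 and 2 and all dbR libraries are listed at 0, and no db/db library reaches the lowest control value. The estimated fragments were 38, 2 and 45 in control, 0, 0 and 1 in dbdb and 0, 0 and 0 in dbR. The separation of control replicate 2 from dbdb replicate 3 therefore rests on 2 fragments against 1. Cfd was called lower against control both in dbdb, with an adjusted p of 0.0138, and in dbR, with 0.0108, and no fold change is given against libraries listed at 0. Like Masp2, it passed the filter on mean level through the control libraries alone, with group means of 1.21 FPKM in control, 0.0173 in dbdb and 0 in dbR. The call in dbdb vs. control was lost without control replicate 1 (adjusted p 0.0508) and without control replicate 3 (adjusted p 0.0518). It was also lost when all transcripts were fitted singly (adjusted p 0.0561). Cfd is listed with 1 transcript, so its own values are the same in that fit and only the other tested features differ. The 8 adipocyte markers summed to 34.3, 29 and 33.2 in control, 16.8, 14.5 and 10.8 in dbdb and 11.2, 12.2 and 11.7 in dbR FPKM, nearly all of it from Car3, and 1 of the 3 tested was called lower in each comparison with control. Retn was at 0 in all db/db libraries. Adipoq and Plin1 were at 0 in all dbdb libraries but not in dbR, where Adipoq had 0.515, 0 and 0.0723 FPKM and Cfd was at 0 throughout. The part of adipose tissue in the Cfd values was not tested. Cfp was between 0.258 and 0.698 FPKM, was called in no comparison, and had a log2 fold change of 0.53 (SE 0.22, adjusted p 0.251) in dbR vs. dbdb, or 0.31 (adjusted p 0.525) without dbdb replicate 2, with every dbR library above every dbdb library.

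The terminal pathway builds the membrane pore, and its members here are C6, C7 and the C8 subunits encoded by C8a and C8g. For C8a (ENSMUSG00000035031, chr4:104815679-104876398) the libraries had 3.96, 3.38 and 5.32 FPKM in control, 0.676, 0.7002 and 0.8004 in dbdb and 0.921, 0.176 and 0.649 in dbR. All 6 db/db libraries lie far below the control libraries, and the dbR libraries spread around the dbdb ones. The fit gave a log2 fold change of -2.37 (SE 0.40, adjusted p 0.00223) in dbdb vs. control and -2.84 (SE 0.40, adjusted p 0.000894) in dbR vs. control, and C8a was called lower in both whichever of the 9 libraries was left out. C8g had 10.3, 9.59 and 11.1 FPKM in control, 7.17, 5.32 and 5.71 in dbdb and 7.21, 7.86 and 9.11 in dbR, and here the dbR libraries lie between the dbdb and the control libraries without overlap. Its log2 fold change was -0.77 (SE 0.12, adjusted p 0.00174) in dbdb vs. control, called whichever library was left out, 0.41 (SE 0.12, adjusted p 0.138) in dbR vs. dbdb and -0.36 (SE 0.12, adjusted p 0.0605) in dbR vs. control. C8g was called lower in dbR vs. control without dbdb replicate 1 (adjusted p 0.0301), without dbR replicate 3 (adjusted p 0.0427) and in a fit to the 6 libraries alone (adjusted p 0.0379).

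C7 binds the growing complex to the membrane. It had 1.72, 0.84 and 1.61 FPKM in control, 1.49, 1.74 and 3.32 in dbdb and 3.66, 4.75 and 4.09 in dbR (ENSMUSG00000079105, chr15:4988762-5063740). Every dbR library lies above every other library, and dbdb replicate 3 is the highest of the rest. The log2 fold change was 1.57 (SE 0.31, adjusted p 0.00532) in dbR vs. control, called higher whichever of the 9 libraries was left out, and 0.98 (SE 0.31, adjusted p 0.152) in dbR vs. dbdb, not called. Without dbdb replicate 3 the latter was 1.31 (adjusted p 0.0586). C6, which joins before C7, was between 0.0167 and 0.555 FPKM, had a log2 fold change of 1.06 (SE 0.45, adjusted p 0.265) in dbR vs. dbdb, or 0.67 (adjusted p 0.488) without dbdb replicate 1, and was called in no comparison.

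**Figure D3:**
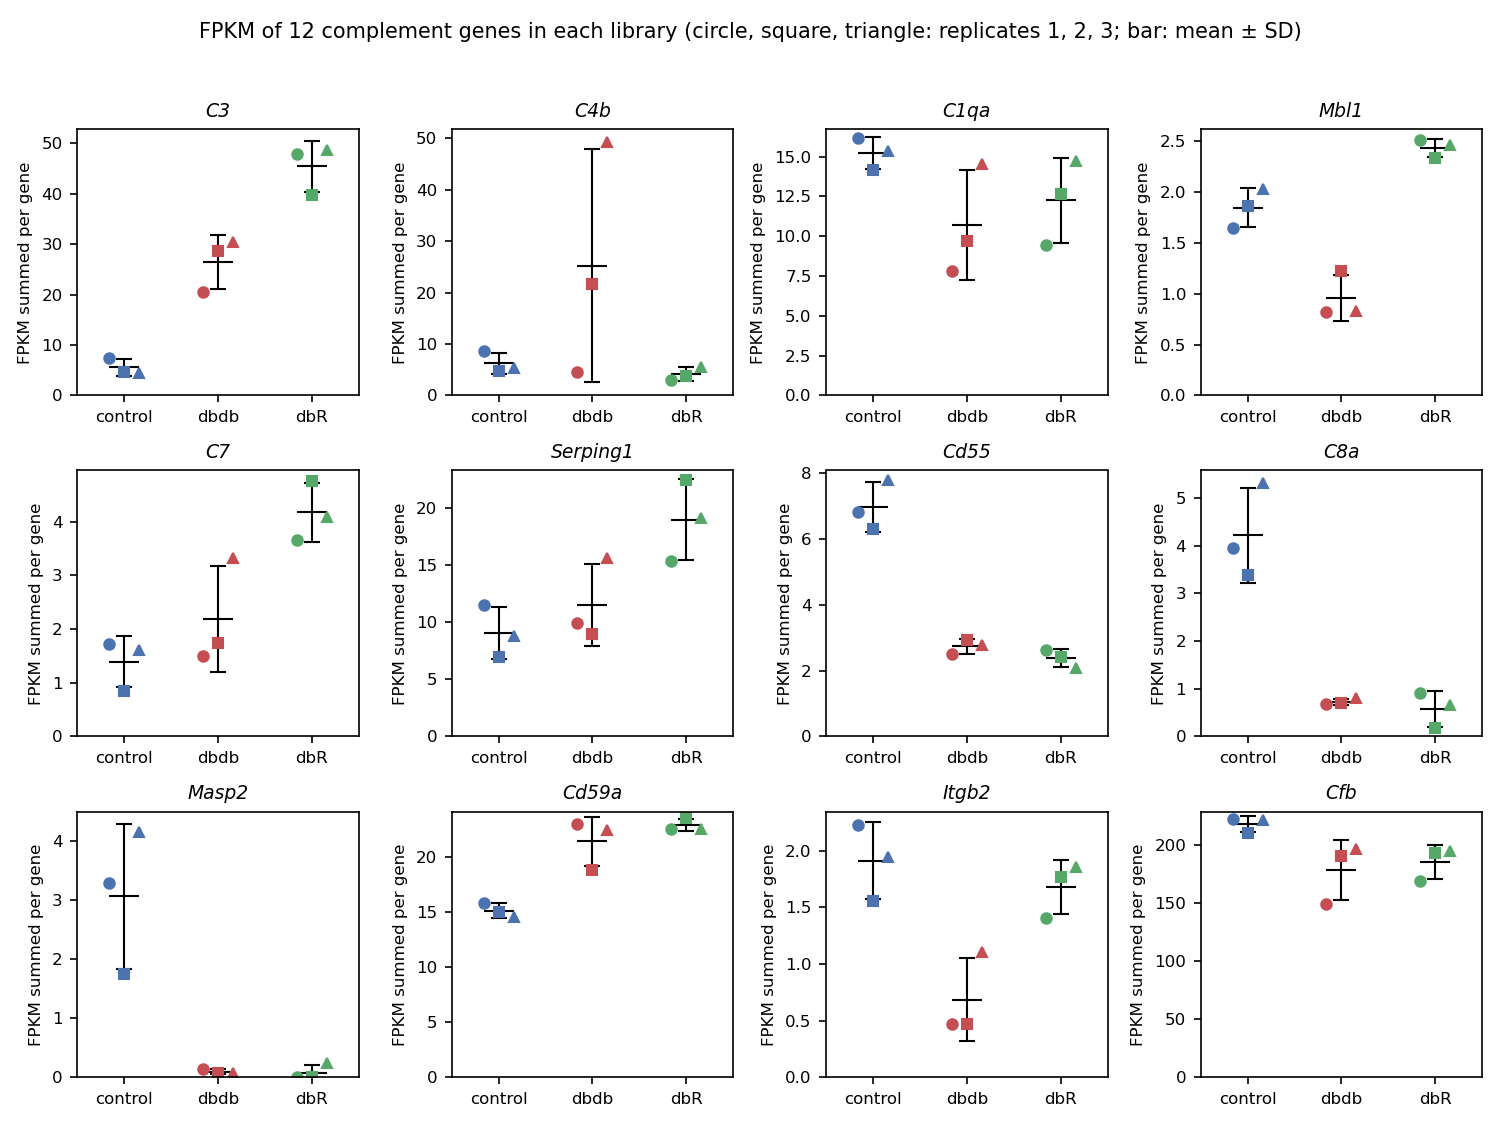
FPKM per library (vertical axes) of 12 complement genes in the control, dbdb and dbR groups (horizontal axes), with symbols for replicates 1, 2 and 3 and bars for mean ± SD. C3 and Mbl1 show no overlap between any pair of groups, Masp2, C8a and Cd55 separate control from both db/db groups, and C4b spreads from 4.54 to 49.4 FPKM within dbdb.

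Regulators on cell membranes protect cells from their own complement. Cd55 (decay-accelerating factor, ENSMUSG00000026399, chr1:130439027-130462744) takes apart the enzymes that cleave C3 and C5, and its libraries had 6.81, 6.3 and 7.8 FPKM in control, 2.5, 2.94 and 2.78 in dbdb and 2.62, 2.43 and 2.09 in dbR. Every db/db library is below every control library, and dbdb and dbR overlap. On the log2 scale the change was -1.31 (SE 0.12, adjusted p 7.12e-05) in dbdb vs. control and -1.51 (SE 0.12, adjusted p 3.76e-05) in dbR vs. control, and Cd55 was called lower in both whichever of the 9 libraries was left out. Cd59a (ENSMUSG00000032679, chr2:104095801-104115354) blocks the membrane pore, and its libraries had 15.8, 15 and 14.5 FPKM in control, 23, 18.8 and 22.4 in dbdb and 22.6, 23.5 and 22.6 in dbR. Its direction was opposite to that of Cd55, with all 6 db/db libraries above all control libraries. Its log2 fold change was 0.49 (SE 0.079, adjusted p 0.00171) in dbdb vs. control and 0.59 (SE 0.079, adjusted p 0.000668) in dbR vs. control, called higher in both whichever library was left out.

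Cr1l encodes Crry, the main membrane regulator of C3 cleavage in rodents, and was the most abundant regulator of the list. It had 33.7, 31.8 and 33.8 FPKM in control, 28.5, 30.5 and 28.9 in dbdb and 31.9, 33.8 and 31.9 in dbR. The dbdb libraries are the lowest and do not overlap with the others, while control and dbR overlap. The change in dbdb vs. control was -0.18 (SE 0.055, adjusted p 0.0402) on the log2 scale, a call that was lost without control replicate 1 (adjusted p 0.107), control replicate 3 (0.111), dbdb replicate 1 (0.109), dbdb replicate 3 (0.0993) or dbR replicate 3 (0.0594), in a fit to the 6 libraries alone (0.0641), with 75th percentile scaling (0.0621), with quantile normalization (0.114) and with no variance trend (0.0717). Its most abundant transcript fitted singly was called lower, at -0.32 (adjusted p 0.00664). In dbR vs. dbdb it was 0.15 (SE 0.055, adjusted p 0.198). Cd46, a membrane cofactor for C3b inactivation, was between 1.93 and 2.68 FPKM, and its log2 fold change in dbR vs. control was 0.30 (SE 0.11, adjusted p 0.0771).

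Serping1 encodes the C1 inhibitor, which blocks the proteases C1r, C1s and MASP, and its libraries had 11.5, 6.98 and 8.75 FPKM in control, 9.93, 8.98 and 15.6 in dbdb and 15.3, 22.4 and 19.1 in dbR (ENSMUSG00000023224, chr2:84765387-84775444). The dbR values are high, with replicate 1 just below dbdb replicate 3, and all dbR libraries are above all control libraries. The log2 fold change was 1.07 (SE 0.23, adjusted p 0.00856) in dbR vs. control, called higher whichever of the 9 libraries was left out, and 0.74 (SE 0.23, adjusted p 0.148) in dbR vs. dbdb, not called. Cfi encodes factor I, the protease that inactivates C3b and C4b, and it had 2.9, 2.07 and 2.26 FPKM in control, 2.45, 3.99 and 6.14 in dbdb and 2.004, 2.55 and 2.63 in dbR. As for C4b, dbdb replicates 2 and 3 are the highest libraries of all, and here dbdb replicate 1 is in the control range. By limma the log2 fold change was 0.69 (SE 0.28, adjusted p 0.0909) in dbdb vs. control and -0.70 (SE 0.28, adjusted p 0.23) in dbR vs. dbdb, and neither was called. In dbdb vs. control Cfi was called higher without dbdb replicate 1, at 1.02 (adjusted p 0.0095), and fell to 0.38 (adjusted p 0.258) without dbdb replicate 3. Leaving out dbdb replicate 3 also brought dbR vs. dbdb to -0.38 (adjusted p 0.438).

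The receptors read C3 and C5 fragments on leukocytes. In dbdb vs. control 4 of the 5 tested were called lower, where 13.4% of all tested genes were. Without dbdb replicate 3 it was 3 of the 5, where 11% of all were. Most of the myeloid and pan-leukocyte markers given above were also called lower, and their part in the receptor values was not tested. Itgb2 encodes the β2 chain shared by complement receptors CR3 and CR4, whose α chains come from Itgam and Itgax. For Itgb2 (ENSMUSG00000000290, chr10:77530252-77565708) the libraries had 2.23, 1.56 and 1.95 FPKM in control, 0.472, 0.473 and 1.11 in dbdb and 1.41, 1.77 and 1.86 in dbR. All dbdb libraries are below all control and all dbR libraries, replicates 1 and 2 by far, and control and dbR overlap. As a log2 fold change, the result was -1.44 (SE 0.28, adjusted p 0.00447) in dbdb vs. control, called lower whichever of the 9 libraries was left out, and 1.27 (SE 0.28, adjusted p 0.066) in dbR vs. dbdb, not called. Without dbdb replicate 3 the latter was called higher, at 1.63 (adjusted p 0.0221).

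Itgax had 1.06, 1.05 and 0.887 FPKM in control, 0.319, 0.32 and 0.59 in dbdb and 0.575, 0.528 and 0.606 in dbR. Control is above all db/db libraries, and dbdb replicate 3 falls among the dbR libraries. The log2 fold change was -1.15 (SE 0.21, adjusted p 0.00372) in dbdb vs. control, called lower whichever library was left out, and -0.71 (SE 0.21, adjusted p 0.035) in dbR vs. control. With transcripts fitted singly, neither was called for the most abundant transcript (adjusted p 0.0545 and 0.257). In dbR vs. control the call was lost when any control library was left out (adjusted p 0.0922, 0.095 and 0.0564 for replicates 1, 2 and 3) and when any dbR library was left out (adjusted p 0.0813, 0.0962 and 0.0669).

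Itgam and C3ar1, the latter the receptor for the fragment C3a, were low but separate between dbdb and the other groups. Itgam was between 0.48 and 0.52 FPKM in control, 0.219 and 0.38 in dbdb, and 0.385 and 0.534 in dbR. C3ar1 was between 0.523 and 0.704 FPKM in control, 0.2998 and 0.458 in dbdb, and 0.511 and 0.561 in dbR. Every dbdb value of these genes is below every control and every dbR value. In dbdb vs. control the log2 fold change was -0.65 (SE 0.21, adjusted p 0.0426) for Itgam and -0.60 (SE 0.18, adjusted p 0.0366) for C3ar1, both called lower, and in dbR vs. dbdb it was 0.48 (SE 0.21, adjusted p 0.264) and 0.44 (SE 0.18, adjusted p 0.256), neither called. With transcripts fitted singly, the most abundant Itgam transcript changed sign in dbR vs. dbdb, to -0.18 (adjusted p 0.952). In dbdb vs. control neither Itgam nor C3ar1 was then called (adjusted p 0.585 and 0.193). As C3ar1 is listed with 1 transcript, its own values are the same in the transcript fit. In a fit to the 6 libraries of dbdb vs. control alone neither gene was called (adjusted p 0.066 for Itgam and 0.0712 for C3ar1). The Itgam call was lost without control replicate 1, 2 or 3 (adjusted p 0.0935, 0.101 and 0.0851), dbdb replicate 2 or 3 (0.134 and 0.0932) and dbR replicate 1 or 3 (0.0546 and 0.0549). The C3ar1 call was lost without control replicate 1 or 2 (adjusted p 0.109 and 0.0918), dbdb replicate 1 or 2 (0.0779 and 0.119) and dbR replicate 2 or 3 (0.0508 and 0.052). C5ar1, the receptor for C5a, was between 0.115 and 0.494 FPKM, with a log2 fold change of -0.70 (SE 0.28, adjusted p 0.0974) in dbdb vs. control, and was called in no comparison.

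Scaling of the libraries bears on these counts. When mitochondrial genes were removed and each library was brought to an equal total, the median log2 fold change of all genes in dbdb vs. control moved to 0.15, and 78.3% of 4461 calls were higher, where 49.5% of 3840 were without scaling. Under that scaling the complement genes had a median of -0.31, with 4 called higher and 8 lower, where 24% and 6.67% of all genes were. Cfi was added (adjusted p 0.0433) and C3ar1 (0.108), Cr1l (0.85) and Itgam (0.0889) were dropped. The same scaling gave 5 higher and 4 lower in dbR vs. control, where 16.5% and 6.93% of all genes were, adding Cd46 (adjusted p 0.0428) and dropping Itgax (0.0795). For dbdb vs. control, scaling to the 75th percentile dropped Cr1l, as given above, and Itgam (adjusted p 0.0511), and quantile normalization dropped Cr1l alone. In dbR vs. control the share of higher calls among all genes was 70.5% without mitochondrial genes and 62.3% with 75th percentile scaling, where it was 51.1% unscaled, and in dbR vs. dbdb it was 48.6% without mitochondrial genes and 75.9% unscaled. The direction of each complement gene with an unadjusted p under 0.05 was the same under all 3 scalings tried, but Cr1l came to -0.018 in dbdb vs. control without mitochondrial genes.

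A further 26 complement genes with values were listed, 14 of them tested. Of these, 2 were called higher and 1 lower in dbdb vs. control, where 13.1% and 13.4% of all tested genes were. Clu (clusterin, which holds back the terminal complex) had 57.1, 56 and 50.6 FPKM in control, 106, 104 and 117 in dbdb and 112, 122 and 103 in dbR, and Cpn1 (a carboxypeptidase subunit that inactivates C3a and C5a) had 35.1, 36.6 and 29.7 FPKM in control, 57.6, 58 and 52.4 in dbdb and 47.4, 46.2 and 47.2 in dbR. In both, all 6 db/db libraries are above all control libraries, and dbdb vs. control gave log2 fold changes of 0.99 (SE 0.08, adjusted p 3.92e-05) for Clu and 0.73 (SE 0.079, adjusted p 0.000197) for Cpn1. C1rl, a C1r-like protease, was lower, at -0.32 (SE 0.072, adjusted p 0.00973). In dbR vs. control 4 were called higher and 1 lower, where 12.3% and 11.8% of all tested genes were, among them C1s1 (the protease that partners C1r) at 0.79 (SE 0.20, adjusted p 0.0161), Clu at 1.04 (SE 0.08, adjusted p 3.64e-05), Cpn1 at 0.48 (SE 0.079, adjusted p 0.00216) and C1rl at -0.32 (SE 0.072, adjusted p 0.00972). For dbR vs. dbdb limma called 0 of the 14, with 3 higher and 1 lower at an unadjusted p under 0.05, and 1 was called higher without dbdb replicate 3.

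Several other complement genes were close to absent. Hc, which encodes C5, was at most 0.108 FPKM in any library, C9 at most 0.168 and Vtn (vitronectin, a terminal pathway inhibitor) at most 0.0878. C8b, the partner subunit of C8a, was listed at 0 in all libraries, as were Fcnb, Colec10 and Cd55b.

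Other cell marker lists were read beside the complement genes. The 4 endothelial markers, with Kdr the most abundant, summed to 65.6, 73.2 and 65.8 in control, 57, 56.3 and 50.6 in dbdb and 72.2, 82.6 and 72.8 in dbR FPKM. The 6 fibroblast and mesangial markers, with Dcn the most abundant, summed to 45, 28.9 and 30.5 in control, 23.8, 25.1 and 35.8 in dbdb and 41, 53.5 and 41.3 in dbR, and none of either list was at 0 in all libraries. In dbdb vs. control 3 endothelial markers and 1 fibroblast or mesangial marker were called lower, and 2 and 1 were called higher in dbR vs. dbdb. Without dbdb replicate 3 these counts were 2 and 2 lower, and 1 and 2 higher. Against control, 1 endothelial marker (Tek) and 2 of the fibroblast and mesangial list (Pdgfra and Pdgfrb) were called higher in dbR. Without dbdb replicate 3 the latter count was 3. All 3 dbR libraries are above all dbdb libraries in both sums, and the part of these cells in C7 and Serping1 was not tested. Of 12 hepatocyte markers, Ahsg, Serpina3k and Cps1 were at 0 in all libraries, and the list summed to 77.7, 62.3 and 85.4 in control, 76.3, 85.4 and 72.3 in dbdb and 101, 98.9 and 103 in dbR, with Serpina1a the most abundant. The neutrophil markers, led by S100a9, summed to between 2.55 and 8.67 FPKM, the T cell markers, led over all 9 libraries by Cd3g but by Lck in dbdb and Cd8a in dbR, to between 0.535 and 2.86, and the B cell markers, led by Cd79b, to between 0.204 and 1.04. Among the 9 tested hepatocyte markers, 4 were called higher in dbdb vs. control and 1 lower. In that comparison 1 of 3 neutrophil markers was called higher, or 0 without dbdb replicate 3. There 1 of 5 T cell and 1 of 2 B cell markers were called lower. In dbR vs. dbdb limma called 0 in these lists, with 2 hepatocyte markers higher and 1 lower at an unadjusted p under 0.05.

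Some complement genes share sequence or lie side by side. Of the read-length windows of the most abundant transcript, 80.7% for Cfb and 48.3% for C2 also occur in Gm20547, and 73.4% for Itgam occur in Gm49368. Gm20547 had a mean of 0.0222 FPKM, a second gene identifier with the symbol Itgam (ENSMUSG00000108596) had 0.0237 FPKM and was kept apart from the Itgam reported here, and the division of reads between overlapping genes makes the values of Cfb, C2 and Itgam less certain. The share was 26.3% for C1ra (with C1rb), 15.1% for Cd46, 8.92% for Cr1l, 2.81% for Cd55 and 1% for Itgax, and 0 for the other genes with values apart from C4b. In GRCm38, Cfb and C2 are 86 bases apart on chromosome 17 with C4b 112 kb away, C1qb, C1qc and C1qa follow each other within gaps of 3617 and 2852 bases on chromosome 4, and Cd46 and Cr1l are 5133 bases apart on chromosome 1. Itgam and Itgax are 11056 bases apart on chromosome 7. Neighbours did not always move alike: in dbdb vs. control C2 was higher while Cfb was not called, at 0.29 and -0.30 on the log2 scale.

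Promoter sequences are shown for 5 genes with large differences between groups and a window free of annotated exons: C3 and C7, which were called higher in dbR vs. control, C8a and Masp2, which were low in all db/db libraries, and Mbl1, the gene called in dbR vs. dbdb. They are the 250 bases before the RefSeq start in GRCm38.p6, 5′ to 3′ on the strand of the gene. The regions are chr17:57228137-57228386 (minus strand) for C3, chr15:5063774-5064023 (minus strand) for C7, chr4:104876399-104876648 (minus strand) for C8a, chr4:148602294-148602543 (plus strand) for Masp2 and chr14:41151206-41151455 (plus strand) for Mbl1. RefSeq promoters were found for 22 of the complement genes. Capitals mark matches on either strand to any of 5 motifs: AGGTCA, a half-site of nuclear receptors, GAGGAA, an ETS and PU.1 core, TTCNNNGAA, bound by STAT factors, TTGCNNAA, bound by C/EBP factors, and TATAAA, the TATA box. Of 32851 promoters of this length, 14% hold the nuclear receptor half-site, 23.3% the ETS core, 7.02% the STAT motif, 9.56% the C/EBP motif and 12.4% the TATA box. Of the 22 complement promoters 5, 5, 3, 1 and 2 hold them. The 3 with the STAT motif are C7, C8a and Masp2, all shown here. Cd55 and Cfd also differed between groups and had a window free of annotated exons. They are not shown, and their windows hold none of the 5 motifs.
C3: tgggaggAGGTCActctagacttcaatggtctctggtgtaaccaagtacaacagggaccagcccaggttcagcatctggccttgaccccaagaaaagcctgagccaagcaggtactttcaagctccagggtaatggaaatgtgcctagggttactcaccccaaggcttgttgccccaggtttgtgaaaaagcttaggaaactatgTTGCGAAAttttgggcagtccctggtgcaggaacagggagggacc
C7: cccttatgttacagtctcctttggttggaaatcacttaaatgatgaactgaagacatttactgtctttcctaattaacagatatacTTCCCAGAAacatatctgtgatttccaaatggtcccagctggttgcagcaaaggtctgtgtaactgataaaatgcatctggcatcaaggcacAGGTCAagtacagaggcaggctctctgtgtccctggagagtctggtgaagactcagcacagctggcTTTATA
C8a: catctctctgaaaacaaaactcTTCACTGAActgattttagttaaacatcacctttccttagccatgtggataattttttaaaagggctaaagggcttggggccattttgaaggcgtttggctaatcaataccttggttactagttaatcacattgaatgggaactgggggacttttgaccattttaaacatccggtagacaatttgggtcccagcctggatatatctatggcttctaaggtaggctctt
Masp2: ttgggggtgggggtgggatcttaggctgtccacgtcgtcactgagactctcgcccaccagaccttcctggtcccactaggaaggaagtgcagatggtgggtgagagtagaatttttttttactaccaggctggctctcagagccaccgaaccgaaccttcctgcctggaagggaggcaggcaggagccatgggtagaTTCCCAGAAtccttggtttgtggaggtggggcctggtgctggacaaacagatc
Mbl1: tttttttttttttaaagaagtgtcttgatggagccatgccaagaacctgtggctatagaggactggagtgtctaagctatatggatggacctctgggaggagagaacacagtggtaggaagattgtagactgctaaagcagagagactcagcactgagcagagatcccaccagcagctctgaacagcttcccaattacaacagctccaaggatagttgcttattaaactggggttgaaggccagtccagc

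In the C3 window the capitals are a nuclear receptor half-site from 243 to 238 bases before the start and a C/EBP motif from 45 to 38 bases before it. The C7 window holds a STAT motif from 164 to 156, a half-site from 72 to 67 and a reversed TATA box in the last 6 bases. Both C8a, from 228 to 220, and Masp2, from 53 to 45, hold a STAT motif, and no motifs overlap in these windows. The Mbl1 window holds none of the 5 letter patterns. A match describes the letters of a window and is not evidence that a factor binds there.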

How the data were processed

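The authors depleted ribosomal RNA, made strand-specific libraries, aligned reads with TopHat2 2.0.9 to GRCm38.p2 and deposited FPKM per transcript from Cufflinks 2.1.1. Here the deposited FPKM was summed per gene identifier and fitted with limma 3.58.1 in R 4.3.3, as 1 model of 9 libraries and 3 groups on log2(FPKM + 0.1) with a variance trend, for 14537 genes with a mean of at least 0.1 FPKM. Depth was estimated per library from the deposited FPKM and is given in the text with the fragments behind low genes. Tables and figures were made with python 3.11.15, numpy 2.4.6, pandas 2.3.3 and matplotlib 3.10.9. Levels are given for every listed complement gene, and a log2 fold change only where the unadjusted p was under 0.05 in that comparison. The complement genes and the marker lists were chosen with earlier results of these data known. Alternatives tried were other pseudocounts and filters, no variance trend, fits to 6 libraries, transcript-level values, 3 scalings, a replicate block and leaving out each library.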

Additional observations from a re-analysis of the deposited data

How the results depend on the processing

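Counts that moved by more than the 1.5-fold limit are given here, with the count from all libraries in brackets. In dbdb vs. control, complement genes called higher (3) rose to 5 at most when single libraries were left out (without dbdb replicate 1). Those called lower (11 of 29) came to 7 of 20 under the filter of mean FPKM 1, where 15.2% of all genes were, to 7 at transcript level, where 5.07% of all transcripts were, and to between 7 (without control replicate 1) and 13 (without dbdb replicate 3) when single libraries were left out. Other complement genes called higher (2) were 4 with mitochondrial genes left out, where 24% of all genes were. Those called lower (1) were 2 with no filter, where 10.7% of all genes were, and 0 with mitochondrial genes left out, where 6.67% were. In dbR vs. dbdb, complement genes called higher (1) were 0 at transcript level, where 0.017% of all transcripts were, and 0 to 2 with a library left out (2 without dbdb replicate 3, 0 without dbR replicate 2 or dbR replicate 3), and those called lower (0) were 1 without dbdb replicate 1. Other complement genes called higher (0) were 1 with a pseudocount of 1, the filter of mean FPKM 1, 75th percentile scaling, quantile normalization or without dbdb replicate 3. In that order 0.647%, 1.03%, 1.13%, 1.11% and 0.791% of all genes were called higher. In dbR vs. control, complement genes called lower (5 of 29) were 3 of 20 under the filter of mean FPKM 1, where 14.3% of all genes were. Other complement genes called lower (1) were 0 with mitochondrial genes left out, where 6.93% of all genes were. The sign reversed for Itgam in dbR vs. dbdb at transcript level, to -0.18 from 0.48. The cause was not tested. With a pseudocount of 1 the log2 fold changes of other low genes shrank too. In dbdb vs. control they came to -0.51 for Itgax, -0.81 for Itgb2, -0.22 for Itgam and -0.24 for C3ar1. For C6 in dbR vs. dbdb the value was 0.27, and for Masp1 in dbR vs. control 0.20.

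Replicate numbers did not pair across groups: correlations between libraries of the same number ran from -0.175 to 0.0615. With a replicate block limma called complement genes in these numbers: dbdb vs. control 3 higher with 10 lower, dbR vs. dbdb 1 with 0, dbR vs. control 4 with 4. Of all genes the block called 11.4% higher and 11.6% lower in the first, 0.103% and 0.055% in the next and 10.6% and 10.2% in the last. In dbdb vs. control the block added C1qa (adjusted p 0.046) and C1qb (0.0408) and dropped C3ar1 (0.0665), Cr1l (0.0741) and Itgam (0.0723). In dbR vs. control it dropped Itgax (0.0572).

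With 3 mice per group, a missed call is weak evidence of equality. The values are processed FPKM without read counts, so counting noise in low genes such as Masp2, Mbl2 and C6 could not be modelled. Whole cortex mixes cell types, RNA is not protein, and complement activation is not measured by transcript levels. Only males at 1 age and 1 dose were sampled.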

Other observations

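Genes chosen after the values were seen: dbdb replicate 3 differs from dbdb replicates 1 and 2 in B2m (270.4, 266 and 1142 FPKM in dbdb replicates 1, 2 and 3), Psmb8 (2.1, 3.65 and 54.2), Irf1 (6.05, 4.92 and 16.5) and H2-D1 (65.2, 72.2 and 123).

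C4b and Cfi are both highest in dbdb replicates 2 and 3 and near the control level in dbdb replicate 1.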
